A study of Homo sapiens with 6 samples.

Results

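The heat shock factor family was followed in MDA-MB-231 cells, an established human line from a breast adenocarcinoma that lacks estrogen and progesterone receptors, after an shRNA against HSF1. The family was taken by gene symbol as HSF1, HSF2, HSF4, HSBP1 and HSF2BP, which are 5 of the 28058 genes in the deposited expression table, and the selection rule uses no measured value. RNA was sequenced from 3 libraries of cells with a control shRNA (shCTL) and 3 libraries of cells with the shRNA against HSF1 (shHSF1). All cells were grown in DMEM with serum under 21% oxygen and 5% CO2, and no heat shock or other treatment is named in the labels. The labels do not give the shRNA sequences, how many shRNAs or clones were used, or whether the replicates came from separate cultures. The column headers carry the letters TGL for all 6 libraries, and cl before the replicate number, with no explanation. The p-values therefore measure the spread between these libraries and may reflect technical variation alone.

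Heat shock factors are transcription factors that bind DNA as trimers. HSF1 is the main activator of chaperone genes under protein stress: chaperones hold it inactive, and once released it binds heat shock elements, which are inverted repeats of a short unit, nGAAn, in the promoters of its targets. HSF1 is also active in many cancer cells without heat stress. HSF2 can form mixed trimers with HSF1 and acts in development, and HSF4 is best known from the lens. HSBP1 is a small coiled-coil protein that binds HSF1 trimers and represses them, and HSF2BP was found as a binding partner of HSF2 and takes part in meiotic recombination through BRCA2.

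Matches to the heat shock element are shown first, as they stand in 8 promoters of classical targets, because the values of these targets are given further on. They were found by sequence alone, and binding was not measured. The sequences are those of RefSeq on GRCh38.p14, each read 5′ to 3′ on the strand of its gene, and the capitals mark 3 alternating units. In HSPD1 and CHORDC1 a further alternating unit, TTC, stands in lower case just before the capitals.
HSPA6, chr1:161524458-161524486, plus strand: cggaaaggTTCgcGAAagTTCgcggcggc
HSPA8, chr11:123062171-123062199, minus strand: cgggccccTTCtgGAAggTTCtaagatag
HSP90AA1, chr14:102087112-102087140, minus strand: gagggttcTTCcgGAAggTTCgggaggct
HSP90AB1, chr6:44247823-44247851, plus strand: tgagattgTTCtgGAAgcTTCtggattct
DNAJA1, chr9:33025268-33025296, plus strand: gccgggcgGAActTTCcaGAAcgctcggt
HSPD1, chr2:197500060-197500088, minus strand: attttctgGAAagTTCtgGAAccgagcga
SERPINH1, chr11:75562169-75562197, plus strand: ttccaactTTCcaGAAgtTTCtcgggacg
CHORDC1, chr11:90223079-90223107, minus strand: aaattcgcGAAggTTCctGAAacgcaacg

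The 6 libraries held 33988307 to 70449758 reads assigned to genes, and shCTL 1 was the deepest. All levels are RPKM, reads per 1000 bases of gene length and per 1000000 assigned reads, so genes can be compared with each other. Among the line's own markers, VIM, a mesenchymal filament protein, lay at 1903 ± 11.1 RPKM in shCTL and 2076 ± 116 in shHSF1 (SD, n = 3). Of 4 mesenchymal markers tested, VIM among them, 1 was called higher and none lower in limma. Over all tested genes 17.7% were called higher and 16.1% lower. ESR1 and PGR were at or below 0.161 RPKM in each library, and ERBB2, a growth factor receptor, was at 10.6 ± 0.528 RPKM in shCTL and 7.88 ± 1.11 in shHSF1 (SD, n = 3), a called fall (−0.41 on the log2 scale, adjusted p = 0.0275 in limma, and up to 0.0796 without single control libraries). The labels call the cells epithelial. The summed level of 5 epithelial markers was 420 to 462 RPKM in shCTL and 323 to 387 in shHSF1, nearly all of it keratins. Its members did not move as 1 group: KRT18 was called lower (−0.47, adjusted p = 0.0183, or 0.0518 without shCTL 1), EPCAM was called higher (0.76, from 4.62 to 8.26 RPKM), KRT8 (0.05) and KRT19 (−0.47) were not called, and CDH1, the epithelial cadherin, was at or below 0.0422 RPKM. Markers of other cells were near 0 except CD68, a lysosomal protein, at 68.4 to 103 RPKM, and COL1A1, a collagen chain, at 1.26 to 2.99 RPKM. COL1A1 was called higher (0.62), a call not kept under every leave-out of a single library. CD68 was not called (0.28), though it was called higher in at least 1 such leave-out. The leukocyte genes PTPRC, CD3E and CD79A were at or below 0.0930 RPKM, the 3 endothelial genes summed to 0.172 to 0.356 RPKM in shCTL and 0.0506 to 0.137 in shHSF1, and the 4 fibroblast genes to 1.34 to 2.14 and 2.52 to 3.25, with LUM at 0 in each library and DCN at or below 0.0109. The part of these marker differences in the family's values was not tested.

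HSF1, the target of the shRNA, was measured at 61.2 RPKM in shCTL 1, 53.3 in shCTL 2 and 47.9 in shCTL 3, against 5.01, 4.70 and 3.84 RPKM in shHSF1 1, 2 and 3. The groups lay far apart, with each control library above each knockdown library. Same-numbered libraries kept 8.18%, 8.83% and 8.02% of the control level. The means were 54.1 ± 6.70 and 4.52 ± 0.604 RPKM (SD, n = 3), which is 11.98-fold lower in shHSF1, from 17736 reads in the 3 control libraries and 1144 in the 3 knockdown libraries. On the log2(RPKM + 0.5) scale HSF1 fell by 3.44 (SE 0.123, 95% interval −3.73 to −3.16; limma across all 12433 tested genes, Benjamini-Hochberg adjusted p = 3.78e-06). In the control libraries HSF1 was above 90.2% of the tested genes, and in the knockdown libraries above 33.7%. HSF1 lies on chromosome 8 at 144291569 to 144314726, plus strand, on hg38, with 13 distinct exons in the table. In bulk RNA, fewer cells with HSF1 transcript and less transcript in every cell cannot be told apart.

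Of the other 4 members none passed the adjusted threshold of 0.05 in this model. HSF1 was the single family member called, against a background of 33.8% of all 12433 tested genes called in either direction, 17.7% higher and 16.1% lower. A single called member of 5 is no more than that background. All 5 members passed the filter on low values, at least 0.5 RPKM in at least 3 libraries, HSF2BP only just.

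**Figure D1:**
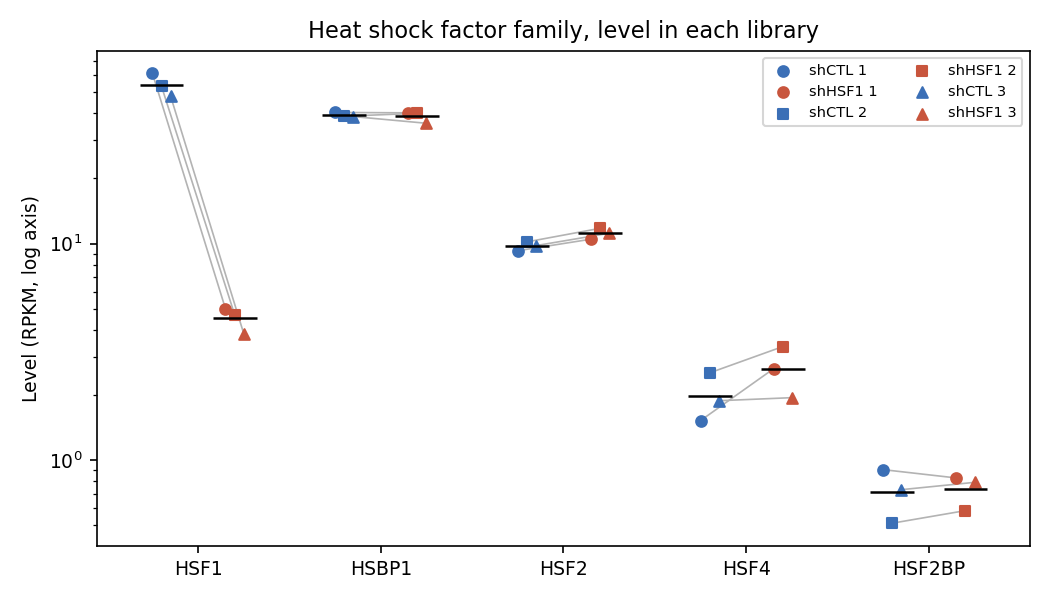
Level of the 5 family members in each library, in RPKM on a log axis. Points are libraries, shCTL in blue and shHSF1 in red, marker shapes are replicate numbers, grey lines join same-numbered libraries and black bars are group means (n = 3). HSF1 drops from 54.1 to 4.52 RPKM while the other 4 members stay within 1.74-fold of their same-numbered control.

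HSF2, a paralog of HSF1 and its partner in mixed trimers, was measured at 9.27, 10.2 and 9.79 RPKM in shCTL 1, 2 and 3 and at 10.5, 11.8 and 11.2 RPKM in shHSF1 1, 2 and 3. Each knockdown library was above each control library, though the lowest knockdown value and the highest control value were close. The ratio of same-numbered libraries was 1.13, 1.16 and 1.14, and the group means were 9.75 ± 0.458 and 11.1 ± 0.642 RPKM (SD, n = 3). The log2 difference was 0.18 (SE 0.0832, 95% interval −0.01 to 0.38), and limma's adjusted p was 0.132. With the replicate number as a block the same difference had an SE of 0.0625, an interval of 0.03 to 0.33 and an adjusted p of 0.0494. The call of HSF2 therefore depends on the pairing, which the main model leaves out although same-numbered libraries deviated together across genes. The block calls 48.3% of all tested genes. HSF1 and HSF2 were the 2 members whose group values did not overlap, and 47.4% of all tested genes have groups that do not overlap. HSF2 lies on chromosome 6 at 122399551 to 122433119, plus strand, on hg38, with 14 distinct exons in the table.

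HSF4, the remaining heat shock factor among the members, was low. Its level was 1.52 RPKM in shCTL 1, 2.53 in shCTL 2 and 1.88 in shCTL 3, from 181 to 281 reads a library. In shHSF1 1, 2 and 3 it was 2.64, 3.35 and 1.94 RPKM, from 173 to 339 reads. The groups overlapped, and replicate 2 was the highest in both. Same-numbered ratios were unequal at 1.74, 1.32 and 1.03. The means were 1.98 ± 0.511 and 2.64 ± 0.701 RPKM (SD, n = 3), and the log2 difference of 0.34 (SE 0.204, 95% interval −0.13 to 0.81) had an adjusted p of 0.244 in limma. With the block the interval was 0.03 to 0.65, which leaves 0, and the adjusted p was 0.0687. HSF4 lies on chromosome 16 at 67163385 to 67169945, plus strand. It shares 594 of its 2618 exon bases, 22.7%, with FBXL8, an F-box gene on the same strand of chromosome 16, and reads from the shared part cannot be told apart. FBXL8 itself stood at 0.542, 1.06 and 0.579 RPKM in shCTL 1, 2 and 3 and at 0.983, 1.32 and 0.552 in shHSF1 1, 2 and 3, again highest in replicate 2 of both groups. The part of the shared bases in the values of HSF4 was not tested.

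HSBP1, the binding protein that represses HSF1 trimers, was almost level across the 6 libraries. It was measured at 40.4, 38.8 and 38.6 RPKM in shCTL 1, 2 and 3 and at 40.2, 39.98 and 36.0 RPKM in shHSF1 1, 2 and 3. The groups overlapped, and shHSF1 3 was the lowest. The group means were 39.2 ± 0.964 and 38.7 ± 2.38 RPKM (SD, n = 3). The log2 difference was −0.02 (SE 0.0722, adjusted p = 0.849 in limma), and its 95% interval ran from −0.19 to 0.15, which is a fold between 0.878 and 1.11. HSBP1 lies on chromosome 16 at 83807903 to 83813002, plus strand, with 4 distinct exons.

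HSF2BP, the binding partner of HSF2, stood close to the detection filter. Its levels were 0.904 RPKM in shCTL 1, 0.512 in shCTL 2 and 0.731 in shCTL 3, from 121, 38 and 51 reads. In shHSF1 1, 2 and 3 they were 0.828, 0.585 and 0.790 RPKM, from 67, 43 and 51 reads. The groups overlapped, with replicate 2 the lowest in both. The exact 95% Poisson interval, which covers counting error only, was 0.362 to 0.703 RPKM for shCTL 2 and 0.750 to 1.08 for shCTL 1, so the control libraries differed beyond their counting error. The means were 0.716 ± 0.197 and 0.734 ± 0.131 RPKM (SD, n = 3). The log2 difference of 0.03 (adjusted p = 0.905 in limma) has a 95% interval of −0.33 to 0.39, and a difference of up to 1.31-fold is within it. HSF2BP lies on chromosome 21 at 43529192 to 43659493, minus strand, with 9 distinct exons.

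**Figure D2:**
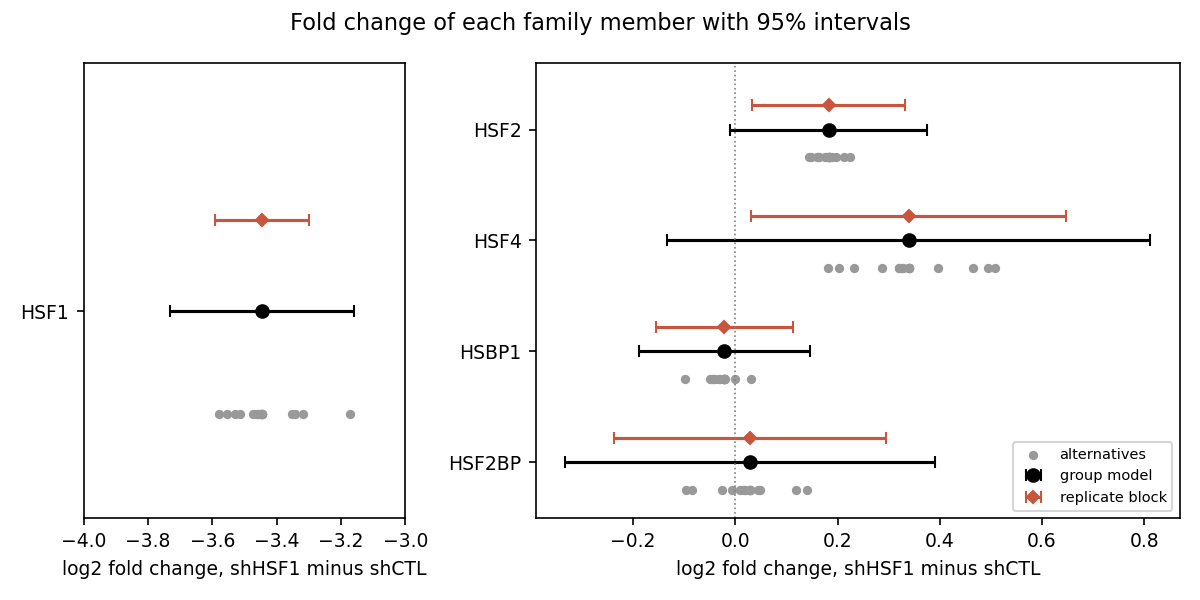
Log2 fold change of each member, shHSF1 minus shCTL, on the log2(RPKM + 0.5) scale, HSF1 on its own axis at left. Black points and bars are the estimate and 95% interval of the group model, red diamonds those with a replicate block, intervals unadjusted, and grey dots the values under the alternative settings. HSF1 stays between −3.58 and −3.17. Of the intervals drawn, those of HSF2 and HSF4 leave 0 with the block and not in the group model. The alternatives are drawn without intervals.

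As HSF1 fell and the others did not, the order of the family changed. In each control library the order was HSF1, HSBP1, HSF2, HSF4, HSF2BP, and in each knockdown library it was HSBP1, HSF2, HSF1, HSF4, HSF2BP. The ranges of neighbours in these orders did not overlap within a group. HSF1 and HSBP1 were close in the controls, at 47.9 and 38.6 RPKM in shCTL 3, as were HSF1 and HSF4 in the knockdown, at 4.70 and 3.35 RPKM in shHSF1 2. HSF2 was at 0.152, 0.191 and 0.204 times the level of HSF1 in shCTL 1, 2 and 3, and at 2.09, 2.50 and 2.91 times in shHSF1 1, 2 and 3. The log2 ratio of HSF2 to HSF1 rose by 3.63 (exact two-sided permutation p = 0.1, the smallest that 3 against 3 libraries can give), most of it from the fall of HSF1 itself. The repressor HSBP1 was at 0.659, 0.728 and 0.806 times HSF1 in the controls and at 8.03, 8.50 and 9.36 times in the knockdown, so its transcript went from below that of HSF1 to several times above it (exact permutation p = 0.1). With HSBP1 itself level (−0.02 on the log2 scale), the rise of this ratio restates the fall of HSF1 and is no separate result. HSBP1 against HSF2 was 4.35, 3.80 and 3.94 in the controls and 3.83, 3.40 and 3.22 in the knockdown. The ratio was lower in all 3 same-numbered pairs, with an exact sign-flip p of 0.25, the smallest that 3 pairs can give. The groups overlapped, and the unpaired exact permutation p was 0.2.

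The 3 factors with a DNA-binding domain that were detected, HSF1, HSF2 and HSF4, summed to 72.0, 66.0 and 59.6 RPKM in the controls and to 18.1, 19.8 and 17.0 RPKM in the knockdown. HSF1 made up 82.0% ± 2.57 of that sum in the controls and 24.7% ± 2.60 in the knockdown (SD, n = 3). HSF2 went from 14.9% ± 1.84 to 61.0% ± 4.27 and HSF4 from 3.04% ± 0.866 to 14.3% ± 2.72. After the knockdown, HSF2 was thus the most abundant of these 3 transcripts. The step of HSF2 itself, from a mean of 9.75 to 11.1 RPKM, was small beside that of HSF1, from 54.1 to 4.52 RPKM.

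**Figure D3:**
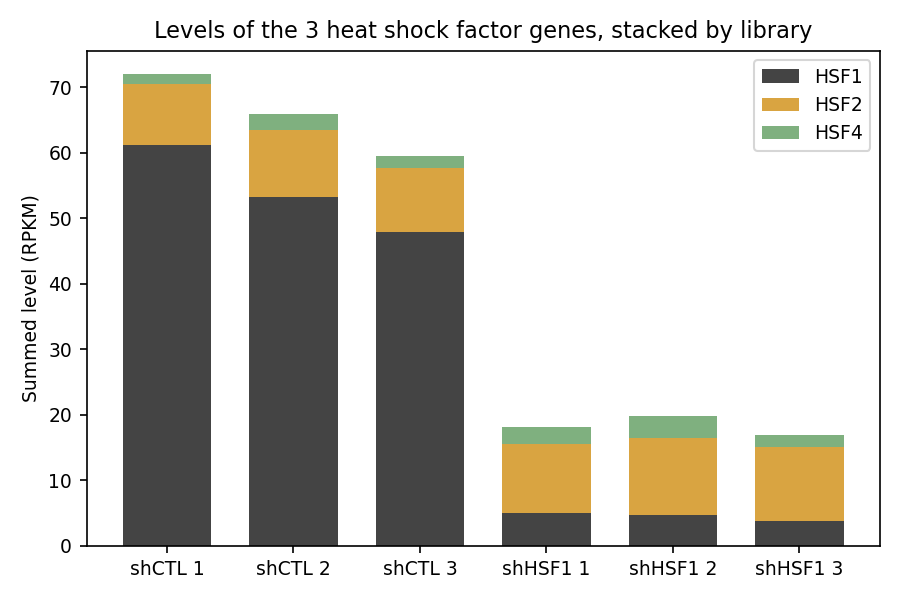
Summed level of HSF1, HSF2 and HSF4 in each library, in RPKM, as stacked bars. The sum falls from 59.6 to 72.0 RPKM in shCTL to 17.0 to 19.8 RPKM in shHSF1, and the HSF2 segment becomes the tallest.

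The other heat shock factor genes looked up, HSF5 and the HSFX genes, were silent or nearly so. HSF5 and HSFX4 had 2 reads each, all in shCTL 1, and HSFX1, HSFX2 and HSFX3 had none. Of the heat shock factors looked up, HSF1, HSF2 and HSF4 were thus the ones detected above the filter. HSFX1 and HSFX2 are near-identical copies, and are uncertain for that reason. HSBP1L1, a paralog of HSBP1, was measured at 11.9, 11.9 and 12.8 RPKM in shCTL 1, 2 and 3 and at 8.01, 7.54 and 7.10 RPKM in shHSF1 1, 2 and 3, without overlap. Its log2 level fell by 0.66 (SE 0.0840, adjusted p = 9.58e-04 in limma).

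The proteins that hold HSF1 inactive came next. Of 12 chaperones and cofactors that bind or repress HSF1, 11 were tested, 4 fell and 2 rose, beside 16.1% and 17.7% of all tested genes. The median log2 difference was −0.22, beside 0.04 over all tested genes. The 4 that fell are also classical targets of HSF1. HSP90AA1, the inducible cytosolic chaperone that keeps HSF1 monomeric, went from 660 ± 49.1 to 478 ± 33.6 RPKM (log2 difference −0.46, adjusted p = 0.00737). Its constitutive relative HSP90AB1 went from 868 ± 34.5 to 699 ± 27.1 RPKM (−0.31, adjusted p = 0.0212). FKBP4, an immunophilin of the same complex, went from 36.0 ± 3.38 to 22.8 ± 1.71 RPKM (−0.65, adjusted p = 0.00156). HSPA8, the constitutive chaperone of the HSP70 class, went from 1127 ± 227 to 770 ± 71.8 RPKM (−0.53, adjusted p = 0.0349). It lies among genes that were lower together, with a median of −0.27 over the 41 tested genes around it, and centred on that median its adjusted p was 0.267. Among those that rose was FKBP5, the glucocorticoid-inducible immunophilin, from 17.8 ± 1.24 to 24.3 ± 1.52 RPKM (0.44, adjusted p = 0.00560; SDs with n = 3). DAXX was not tested: it is listed also on 4 alternate contigs, and its RPKM was below the filter. The calls of HSP90AB1 and HSPA8 were lost when certain single libraries were left out, with adjusted p up to 0.0894 and 0.115.

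Among 17 kinases and acetylation enzymes that act on HSF1, all tested, 6 rose and 1 fell, beside 17.7% and 16.1% of all tested genes. The median log2 difference was 0.18, beside 0.04 over all tested genes. PRKAA1, the catalytic subunit of the energy sensor AMPK, went from 17.8 ± 1.55 to 31.0 ± 4.74 RPKM (0.77, adjusted p = 0.00224), within a stretch of genes whose median was 0.41. Centred on it, its adjusted p was 0.0612. CREBBP, an acetyltransferase that modifies HSF1, went from 9.97 ± 0.934 to 14.6 ± 0.921 RPKM (0.53, adjusted p = 0.00453). AKT1, a survival kinase reported to phosphorylate HSF1, went from 35.3 ± 1.90 to 49.1 ± 5.22 RPKM (0.46, adjusted p = 0.00722). PIM2, another survival kinase, went from 3.42 ± 0.255 to 4.75 ± 0.534 RPKM (0.42, adjusted p = 0.0240), a call lost when certain single libraries were left out (adjusted p up to 0.0922). The one that fell was MAPK3, a MAP kinase that phosphorylates an inhibitory site of HSF1, from 15.9 ± 1.44 to 11.6 ± 0.956 RPKM (−0.43, adjusted p = 0.0117; SDs with n = 3). The block called 9 of the 17 higher and 1 lower, where it called 48.3% of all tested genes. Leaving out single libraries gave 3 to 8 higher, and centring on neighbouring genes gave 3 higher and 2 lower.

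Of 7 coactivators and partners on DNA, 3 rose and none fell (median 0.21), beside 17.7% and 16.1% of all tested genes. MED14, the backbone subunit of the Mediator complex, went from 12.3 ± 0.162 to 16.8 ± 1.35 RPKM (0.44, adjusted p = 0.00545). RPA1, the single-strand DNA-binding subunit that helps HSF1 reach nucleosomal DNA, went from 47.7 ± 7.28 to 62.2 ± 5.49 RPKM (0.39, adjusted p = 0.0385). SMARCA4, a remodelling ATPase recruited by HSF1, went from 52.8 ± 2.27 to 61.5 ± 2.44 RPKM (0.22, adjusted p = 0.0412; SDs with n = 3). Without single libraries the adjusted p of RPA1 and SMARCA4 reached 0.126 and 0.139. Centred on neighbouring genes, RPA1 (0.37, adjusted p = 0.0540) and SMARCA4 (0.09, adjusted p = 0.364) were not called, which leaves 1 of the 7.

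Of 13 genes for turnover and modification of HSF1 and HSF2, all tested, 2 rose and 2 fell (median 0.08). These 4 of 13 are close to the 33.8% called among all tested genes. PRC1, a spindle midzone protein reported to bind HSF2 in mitosis, had the largest change of the regulators: it was 64.7, 52.3 and 61.4 RPKM in shCTL 1, 2 and 3 and 141, 139 and 149 RPKM in shHSF1 1, 2 and 3. The groups were far apart, and its log2 level rose by 1.26 (adjusted p = 7.43e-05). Genes around PRC1 on chromosome 15 had a median of 0.64, and centred on it PRC1 was 0.63 higher with an adjusted p of 0.00228. NEDD4, a ubiquitin ligase that acts on HSF1, went from 27.3 ± 1.47 to 33.6 ± 2.03 RPKM (0.29, adjusted p = 0.0226, and up to 0.0707 without single libraries). Centred on neighbouring genes, NEDD4 was not called (0.10, adjusted p = 0.405). CUL3, the scaffold of ubiquitin ligases that act on HSF2, went from 32.7 ± 2.14 to 23.8 ± 2.23 RPKM (−0.45, adjusted p = 0.00705; SDs with n = 3). CUL3 lies on chromosome 2 in a stretch with a median of −0.53, and centred on it was not called (adjusted p = 0.590). Centring left 1 of the 13 called.

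Of 7 recombination partners of HSF2BP, 6 were in the table, 3 passed the filter and 2 of these rose (median 0.31). Over all tested genes, 17.7% rose. PALB2, which joins BRCA2 to BRCA1, went from 6.76 ± 0.454 to 8.52 ± 0.664 RPKM (SD, n = 3; 0.31, adjusted p = 0.0375, and up to 0.1003 without single libraries). Centred on neighbouring genes, PALB2 was not called (0.25, adjusted p = 0.0902). BRCA2, the direct partner of HSF2BP, was 6.88 ± 0.884 and 8.42 ± 1.09 RPKM (SD, n = 3) and was not called (0.27, adjusted p = 0.145, or 0.0159 with the block). The meiotic recombinase DMC1 had 8 reads in the controls and 7 in the knockdown, and SPATA22, a meiotic partner, had none.

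**Figure D4:**
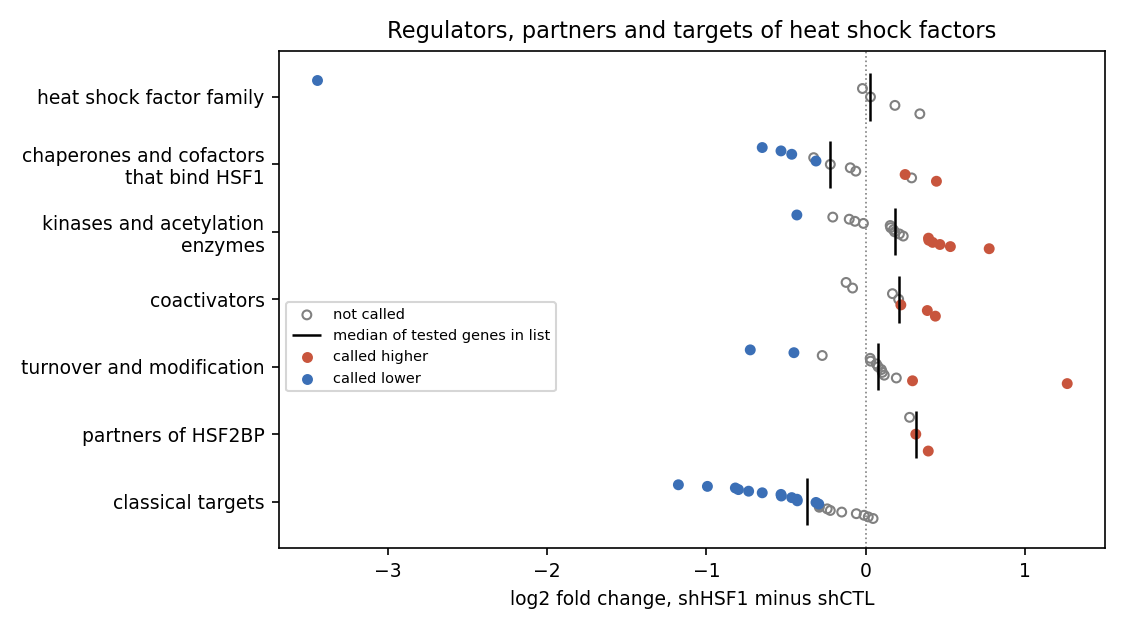
Log2 fold change, shHSF1 minus shCTL, of the tested genes of the family and of 6 lists of regulators, partners and targets; each point is a gene and the black line is the list's median. Filled points passed the adjusted p of 0.05, red higher and blue lower. Classical targets hold 13 called lower and none higher, beside 16.1% lower and 17.7% higher among all tested genes.

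Of 26 classical targets of heat shock factors, 22 were tested. Of these, 13 fell and none rose, beside 16.1% lower and 17.7% higher among all tested genes. The median log2 difference was −0.37 beside 0.04 over all tested genes, and leaving out single libraries gave 8 to 14 lower. Without shCTL 1, shCTL 3 or shHSF1 2 the count was 8. The block gave 17 lower, where it called 48.3% of all tested genes in either direction. Centring on neighbouring genes gave 11, where 1727 of all 12433 tested genes were called lower. Among the 22 tested, on the log2(RPKM + 0.5) scale, HSPH1, an HSP70 nucleotide exchange factor, had the largest fall, from 66.3 ± 6.03 to 29.0 ± 1.51 RPKM (−1.18, adjusted p = 8.36e-05). HSPB1, a small heat shock protein, went from 90.5 ± 7.20 to 45.2 ± 2.53 RPKM (−0.99, adjusted p = 1.37e-04). HSPE1, the mitochondrial co-chaperonin, went from 36.8 ± 3.78 to 21.0 ± 4.83 RPKM (−0.82, adjusted p = 0.00810), and HSPA4L, a relative of HSPH1, from 30.9 ± 1.96 to 17.5 ± 1.24 RPKM (−0.80, adjusted p = 3.98e-04; SDs with n = 3). HSPE1 lies in a stretch of chromosome 2 with a median of −0.50, and centred on it was not called (adjusted p = 0.213). HSPA4L lies in a stretch of chromosome 4 with a median of −0.39. Centred on that, HSPA4L was −0.41 and still called (adjusted p = 0.0101). BAG3, a cochaperone and classical target, did not follow: 54.5 ± 0.750 and 55.1 ± 1.43 RPKM (SD, n = 3; 0.02, adjusted p = 0.872). It was 1 of 9 tested targets not called. Among the others were HSPA4 (−0.06, adjusted p = 0.571) and HSPA1B (−0.01, adjusted p = 0.965). Centred on neighbouring genes, HSPA4 was called lower (−0.28, adjusted p = 0.0258). HSPA1B was low, at 0.808 and 0.798 RPKM, and is listed also on 4 alternate contigs. BAG3 and the other targets outside the naming rule were chosen after their values were seen.

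The promoters were then searched for pairs of units, GAANNTTC or TTCNNGAA, which read the same on both strands and can overlap, and for elements in which 3 units alternate, on either strand, in the 300 bases from 250 before to 50 after each RefSeq start. Of 27305 genes with a promoter, 16.2% held a pair and 0.608% a three-unit element. Of 23 classical targets with a promoter, 16 held a pair and 8 a three-unit element, the 8 printed above. The 3 units printed in capitals began 50 to 240 bases before the start, except in DNAJA1, where they began 3 bases after it. Of these 8 targets 7 were tested, 6 fell and the median was −0.46, from −0.74 to −0.29. Of the 15 without such an element 13 were tested, 6 fell and the median was −0.29, from −1.18 to 0.05. Over all tested genes, 16.1% fell. HSPH1 and HSPB1, with the largest falls among the tested targets, were among those without one in this window. HSPA6, which holds one and was not tested, stood at 0.489 ± 0.173 RPKM in shCTL and 0.0995 ± 0.0280 in shHSF1 (SD, n = 3), a ratio of 4.91. The difference between these sets was not tested. For the family itself, 3 members with 5 promoters were in the table, HSF2, HSF4 and HSBP1, and none of these promoters held a pair or a three-unit element.

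As whole chromosome stretches differed between the groups, each member was set beside its 10 nearest tested genes on either side. Their reach was unequal: the farthest lay 0.212 Mb from HSF1, 0.359 from HSF4, 2.07 from HSF2BP, 2.80 from HSBP1 and 4.83 from HSF2. No member had a larger share of these 20 neighbours called than the 33.8% called among all tested genes. The 20 genes around HSF1 on chromosome 8 had a median log2 difference of −0.23, with 2 lower and none higher, and the lowest was −1.10. HSF1 at −3.44 stood well outside them, and centred on its stretch of 41 genes, with a median of −0.27, it was −3.17. BOP1, a ribosome biogenesis gene that starts 130 bases from HSF1 on the other strand, was 44.7, 28.5 and 29.5 RPKM in shCTL 1, 2 and 3 and 34.4, 28.0 and 23.8 RPKM in shHSF1 1, 2 and 3. These values overlapped (−0.23, adjusted p = 0.396 in limma, or 0.0456 with the block). DGAT1, a triglyceride synthesis enzyme, runs into the last exon of HSF1 from the other strand and shares 144 bases, 6.62% of the HSF1 exons. DGAT1 was 5.72, 5.72 and 4.61 RPKM in shCTL 1, 2 and 3 and 4.68, 4.72 and 3.46 RPKM in shHSF1 1, 2 and 3 (−0.29, adjusted p = 0.153, or 0.0190 with the block), and no source used here says whether reads were counted by strand. The 2 genes called lower, named after their values were seen, were KIFC2, a kinesin (−1.10), and CYHR1 (−0.58).

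Around HSF2 the median was 0.01, with 1 gene higher and 2 lower. These counts and those that follow stand beside 17.7% higher and 16.1% lower among all tested genes. The nearest on one side, SERINC1, was level (−0.04, adjusted p = 0.768). On the other side, 949806 bases away, the gap junction gene GJA1 went from 19.2 ± 1.59 to 7.01 ± 0.186 RPKM (SD, n = 3; −1.39, adjusted p = 4.02e-05), opposite in sign to the HSF2 difference. Around HSF4 the median was 0.19, with 5 higher and 1 lower. RRAD, among these 5, passed the filter on low values only through shHSF1, so its direction was fixed in advance. NOL3, an inhibitor of apoptosis that begins 551 bases after HSF4, was 5.66 ± 0.669 and 5.39 ± 0.699 RPKM (SD, n = 3; adjusted p = 0.729). Around HSBP1 the median was 0.09, with 4 higher and none lower, and its nearest neighbours MPHOSPH6 (−0.21, adjusted p = 0.152, or 0.0288 with the block) and MLYCD (0.03, adjusted p = 0.902) were not called. Around HSF2BP the median was 0.15, with 4 higher and none lower. SLC37A1 and PDE9A, among these 4, passed the filter on low values only through shHSF1, which fixed their direction in advance. RRP1B, which starts 57 bases from HSF2BP on the other strand, was 20.1 ± 2.35 and 21.4 ± 1.25 RPKM (SD, n = 3; 0.09, adjusted p = 0.519), and PKNOX1 on the far side was −0.13 (adjusted p = 0.304). The small nested genes H2BFS and MIR6070 share no exon base with HSF2BP.

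**Figure D5:**
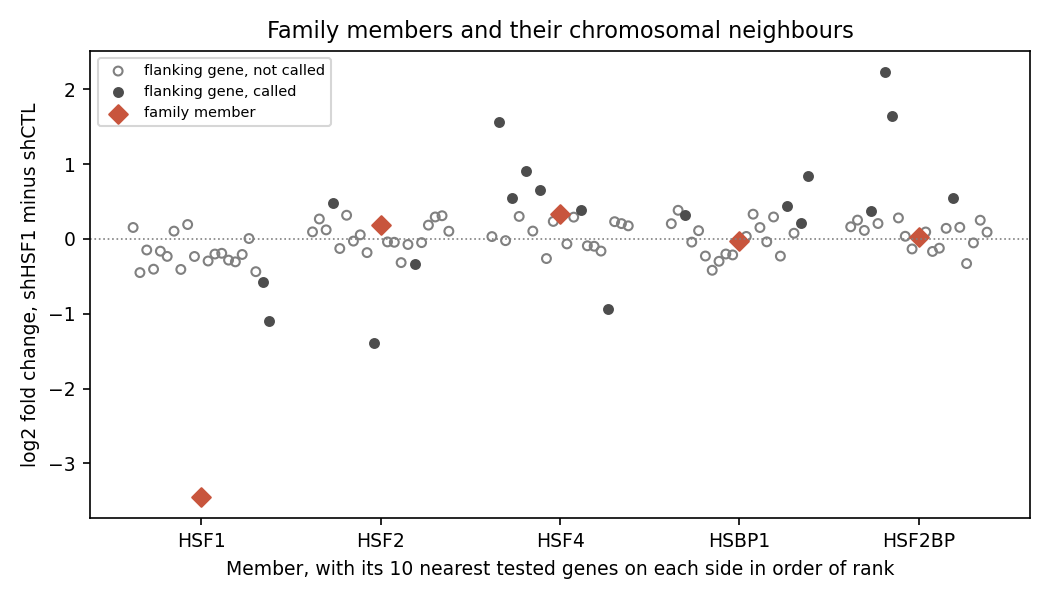
Log2 fold change, shHSF1 minus shCTL, of each member (red diamond) and of its 10 nearest tested genes on each side, placed by rank and not by distance. Filled grey points passed the adjusted p of 0.05 and open points did not. HSF1 at −3.44 lies below all 20 neighbours, the lowest at −1.10, while the other members lie within the range of theirs.

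Likeness of profile was measured as the root mean square distance between centred log2 levels over the 6 libraries, where a smaller value is a closer match. The distances share libraries and describe these samples only. Closest to HSF1 were MYO1D, an unconventional myosin (distance 0.163, Pearson r 0.996), MXRA8, a membrane protein (0.209), and ZNF518B, a zinc finger protein (0.230). MXRA8 went from a mean of 4.10 to 0.0131 RPKM and ZNF518B from 4.19 to 0.00678, larger falls in RPKM ratio than that of HSF1, and their closeness holds on the log2(RPKM + 0.5) scale, which compresses low values. MYO1D went from 18.3, 21.0 and 17.3 RPKM in shCTL to 1.15, 1.17 and 1.15 in shHSF1, a log2 difference of −3.54 beside −3.44 for HSF1. Closest to HSF2 were PVR, the poliovirus receptor and nectin-like adhesion protein (0.0188), SETD2, a histone methyltransferase (0.0194), and WSB1, a ubiquitin ligase subunit (0.0207). PVR was 43.6, 47.8 and 46.0 RPKM in shCTL and 50.8, 54.7 and 52.6 in shHSF1, lowest in replicate 1 of each group as HSF2 was. For HSF4 they were RRNAD1 (0.0586), LBHD1 (0.0656) and SLC26A6, an anion exchanger (0.0774), all highest in replicate 2 of both groups. For HSBP1 they were DUT, a dUTPase (0.0223), H3F3B, a histone gene (0.0233), and APTR (0.0237). For HSF2BP they were LSM3, an RNA-binding subunit (0.0460), GTF3C6, a subunit of the transcription factor TFIIIC (0.0475), and NOC3L, a nucleolar protein (0.0524).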

How the data were processed

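RPKM values of 28058 genes in 6 libraries were deposited. STAR, featureCounts and hg38 are named in the submitters' processing notes, while no source used here gives versions or the use of strand. Column-purified RNA went into a KAPA mRNA kit, per the labels' protocols. The control columns are headed shScr and were matched to the shCTL titles by number. Reads were recovered from the deposited RPKM, gene length and read steps (100% whole within 0.01 of a read).

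The 12433 genes that reached 0.5 RPKM in 3 or more libraries entered a limma fit (version 3.58.1, R 4.3.3) of log2(RPKM + 0.5), with a mean-variance trend, two-sided, Benjamini-Hochberg adjusted, threshold 0.05; "rose" and "fell" mean past it. This scale understates changes of low genes. Same-numbered libraries deviated together (r = 0.468, 0.307 and 0.451 across genes), and other pairs gave −0.37 to −0.02. Deviations from a group mean cancel within the group, so the negative values are not independent of the positive ones. The numbers were taken to pair samples. The main model, which gives the calls, left this pairing out. The replicate block, which uses it, was the alternative. Exact permutation tests of 3 against 3 cannot go below 0.1. The centred values subtract the median of 41 neighbouring tested genes. Gene spans over 3 Mb, which join separate loci, were left out of the neighbours.

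The members were taken by symbol, but the family and the gene lists were proposed with earlier results of these data known, so list counts are descriptions. Named genes were the members, up to 4 called genes per list and direction, nearest and overlapping genes, the 3 most like genes and markers. Promoters came from RefSeq, GRCh38.p14. A few genes that this rule takes are not reported here.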

Additional observations from a re-analysis of the deposited data

How the results depend on the processing

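HSF1 kept its direction and call under all 17 alternatives, which were the replicate block, each library left out, other pseudocounts, filters, scalings and priors, voom on recovered reads and centring on neighbouring genes (log2 difference −3.58 to −3.17, adjusted p 8.35e-07 to 1.56e-04). HSF2 kept its sign (0.14 to 0.22) and passed the threshold in 1 alternative, the replicate block (0.18, adjusted p = 0.0494), with adjusted p up to 0.361 elsewhere. HSF4 ranged from 0.18 to 0.51 with adjusted p from 0.0687 to 0.578. HSBP1 changed sign without shHSF1 3 (0.0303) and lay between −0.0488 and 0.0303 when single libraries were left out. HSF2BP changed sign when centred (−0.0852) and without shCTL 2 (−0.0968), shHSF1 1 (−0.0263) or shHSF1 3 (−0.00553), within a leave-one-out range of −0.0968 to 0.140, and was below the filter at 1 RPKM. The block called 3257 genes higher and 2750 lower. Leaving out single libraries gave 1383 to 2374 higher, with 1404 without shCTL 3 and 1383 without shHSF1 2, and 1399 to 1943 lower. Classical targets called lower were 8 to 14, with 8 without shCTL 1, shCTL 3 or shHSF1 2. The 3 ratios between members kept their sign under 8 alternatives each. The causes of these shifts were not tested. HSF2BP rests on 38 to 121 reads a library.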

Other observations

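Some genes tied to heat shock factors fell below the filter on low values and so entered no test. HSPA6, the strictly stress-inducible member of the HSP70 class, whose promoter holds a three-unit element, was 0.307, 0.651 and 0.508 RPKM in shCTL 1, 2 and 3 and 0.0796, 0.131 and 0.0873 RPKM in shHSF1 1, 2 and 3, from 155 reads against 27. Each control library was above each knockdown library. HSPB8, a small heat shock protein that works with BAG3, went the other way, with 2 reads in the controls and 17 in the knockdown. CRYAB, the lens and muscle small heat shock protein, had 2 reads in the controls and none in the knockdown. C19orf57, a partner of HSF2BP and BRCA2, was 0.570 ± 0.166 RPKM in shCTL and 0.473 ± 0.0431 in shHSF1 (SD, n = 3). HSPA1A is listed also on 4 alternate contigs, which lengthens the gene in the table, and stood at 0.302 ± 0.0171 and 0.209 ± 0.0449 RPKM (SD, n = 3).

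Some neighbours of the family moved far more than the members they flank. Of the genes near HSF2BP, SLC37A1, a sugar-phosphate transporter, was 0.0502, 0.0388 and 0.0481 RPKM in shCTL 1, 2 and 3 and 2.52, 2.26 and 1.52 RPKM in shHSF1 1, 2 and 3. PDE9A, a cyclic GMP phosphodiesterase on the same side, went from 0.0615 ± 0.0154 to 1.26 ± 0.247 RPKM (SD, n = 3). SLC37A1 and PDE9A passed the filter on low values only through shHSF1, where they are high. Near HSF4, CBFB, the partner subunit of RUNX factors, went from 23.4 ± 1.24 to 44.5 ± 1.57 RPKM (SD, n = 3). These genes were chosen after their values were seen.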
